A study of Rattus norvegicus with 18 samples.

Results

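Heat shock proteins and small chaperones were followed through the healing of a femoral fracture in rats of 3 ages. The 6 genes are the small heat shock proteins Cryab and Hspb1, and the general chaperones Hspa8, Hsph1, Hspd1 and Hspe1. They were chosen by gene symbol, with earlier results of these data known. The array carries 15 probe sets for them among the 8740 probe sets tested. The brightest probe set of a gene, by its mean over all arrays, stands for that gene, and the other probe sets are given beside it.

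RNA was measured on 18 Affymetrix rat GeneChip arrays of female Sprague-Dawley rats, called young, adult and older, whose age at surgery was 6, 26 and 52 weeks in that order. Each age had 1 array at 0 time, from sham rats without fracture, and 1 array at each of 5 times (0.4, 1, 2, 4, 6 weeks) after a closed mid-shaft fracture of the femur held by an intramedullary rod. RNA of 2 rats was pooled for each array, so the 3 ages serve as the replicates of a time point and no array has a replicate of its own age. The earliest time after fracture is labelled 3 days, which is written here as 0.4 week. The 0 time controls were of the age at fracture, so time after fracture and growth or ageing over the same weeks cannot be told apart. The tissue was the part of the femur centred on the fracture, with callus, cortical bone and marrow. In such bulk tissue, fewer cells of a type and less RNA per cell cannot be told apart.

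Chaperones bind unfolded proteins and keep them from clumping or help them to fold. The small heat shock proteins hold unfolded proteins without using ATP, and Cryab (alpha B-crystallin) and Hspb1 (HSP27) are abundant in skeletal and heart muscle, where they associate with desmin filaments and the contractile apparatus. Hspa8 (HSC70) is the HSP70 that cells make without stress, and Hsph1 (HSP110) releases nucleotide from HSP70 so that its cycle can run on. Hspd1 (HSP60) forms the folding chamber of mitochondria and Hspe1 (HSP10) is the lid of that chamber. Many heat shock genes are switched on by heat shock factor 1, which binds repeats of GAA and TTC in their promoters.

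These repeats are shown because they are a sequence feature on which the general chaperones and Hspb1 can be compared. RefSeq promoter windows of 5 of the 6 genes (250 bases before to 50 after the start, build GRCr8) were searched on both strands for 2 adjoining units (GAANNTTC or TTCNNGAA), 3 units (GAANNTTCNNGAA or TTCNNGAANNTTC) and 4 units (TTCNNGAANNTTCNNGAA). The shorter forms lie within the longer ones. For each gene the stretch with the most matches close together is printed, and of several equal ones the one farthest from the start. One more 3-unit match of Hspa8 and one more 2-unit match of Hsph1 are not shown. Capitals mark the GAA and TTC units of each match printed, and all stretches lie before the start of the gene, 5′ to 3′ on the strand of the gene.
Hspb1, chr12:26432391-26432442, minus strand: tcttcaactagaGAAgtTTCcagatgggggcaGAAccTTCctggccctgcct
Hspa8, chr8:50080289-50080325, plus strand: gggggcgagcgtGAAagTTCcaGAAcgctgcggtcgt
Hsph1, chr12:10427320-10427356, plus strand: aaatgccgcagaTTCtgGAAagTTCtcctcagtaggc
Hspd1, chr9:64084250-64084287, minus strand: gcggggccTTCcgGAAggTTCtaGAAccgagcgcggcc
Hspe1, chr9:64084250-64084291, plus strand: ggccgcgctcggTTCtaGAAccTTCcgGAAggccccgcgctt

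The windows of Hspa8, Hsph1, Hspd1 and Hspe1 each held the 3-unit form, which was found in 267 of all 33469 promoter windows (0.798%). The window of Hspb1 held the 2-unit form at 2 places and no 3-unit form, and the 2-unit form was found in 5305 windows (15.9%). Hspd1 and Hspe1 lie head to head with starts 290 bases apart, and their windows share 211 bases, so the 4-unit run printed for both is the same stretch read from opposite strands. The 4-unit form was found in 10 windows (0.0299%). A match of letters is a description of the window and not a measured binding site.

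Cryab fell after fracture at all 3 ages and was the only 1 of the 6 genes that passed the test over time. In young rats its signal was 10453 at 0 time, then 3137.5, 3123, 3367, 7774 and 7079 over the 5 times after fracture. In adult rats it was 27882 at 0 time, then 4882, 4988, 5545, 10334 and 10458. In older rats it was 17608 at 0 time, then 8009, 4648, 6652.5, 7476.5 and 9616. At each age all 5 arrays after fracture were lower than the control, and from 0.4 to 4 weeks the 3 signals after fracture lay wholly below the 3 control signals. At 6 weeks the adult signal of 10458 overlapped the young control by a narrow margin.

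The mean signal of Cryab was 5343 ± 2468 at 0.4 week against 18648 ± 8761 at 0 time (SD, n = 3 ages each), a 3.47-fold lower level in the fit with age as a term. It was 4.14-fold and 3.46-fold lower at 1 and 2 weeks, then 2.04-fold and 1.93-fold lower at 4 and 6 weeks. On the log2 scale the changes were -1.80, -2.05, -1.79, -1.03 and -0.95, each with a standard error of 0.25. The adjusted p-values from limma were 0.000672, 0.000755, 0.00346 and 0.0426 at the first 4 of these times, and 0.0867 at 6 weeks, which misses the threshold of 0.05. A joint F test of the 5 times after fracture gave an adjusted p of 0.00207. The share of all probe sets called by this F test was 26.4%, beside 1 of the 6 chaperone genes.

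Leaving out the 6 adult arrays ended the calls on Cryab at all times but 1 week. Without them the changes from 0.4 to 4 weeks were -1.44, -1.83, -1.52 and -0.83, with adjusted p-values of 0.0703, 0.0426, 0.144 and 0.379 from limma, and the F test gave 0.152. Without the older arrays the fall at 2 weeks (-1.98, adjusted p = 0.0593) and at 4 weeks (-0.93, adjusted p = 0.290) was no longer called, and without the adult control array alone the call at 4 weeks was lost (-0.78, adjusted p = 0.156). The other Cryab probe set gave the same picture, with changes of -2.08, -2.44 and -2.07 at 0.4, 1 and 2 weeks (SE 0.34, adjusted p = 0.00146, 0.00120 and 0.00579 in limma) and -1.22 and -1.04 at 4 and 6 weeks, neither of which passed. With 3 arrays against 3, no weekly call on Cryab held. Its adjusted p-values lay between 0.113 and 0.363 from 0.4 to 4 weeks in limma on the arrays of that week and 0 time alone, and between 0.0965 and 0.531 in the methods' t-test. The last of these is the kind of test the paper names, run here on this series alone with adjusted p-values. The paper used replicate arrays of each age, so its own test was not repeated. The share of all probe sets called in these smaller fits is not given, so the lost calls are not a result about Cryab.

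**Figure D1:**
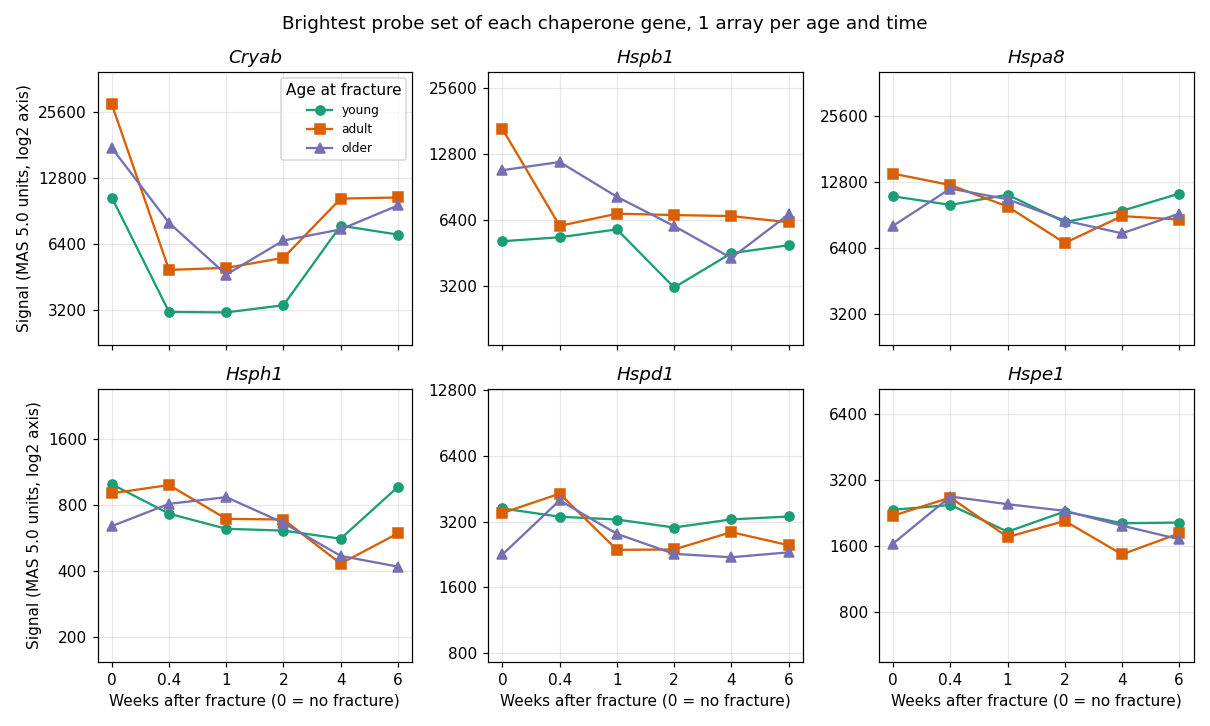
Signal of the brightest probe set of each gene (MAS 5.0 units, log2 axis of equal span in all panels) against weeks after fracture, with a line for each age and 1 array per point. The Cryab lines lie between 3123 and 8009 from 0.4 to 2 weeks, against 10453, 27882 and 17608 in the young, adult and older controls, while the lines of Hspa8, Hspd1 and Hspe1 stay within a narrower band.

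Hspb1 had its highest signal in the adult control. In young rats its signal was 5111 at 0 time, then 5329.8, 5789.6, 3142, 4508 and 4901 after it. In adult rats it was 16615 at 0 time, then 6008, 6829, 6732, 6659 and 6239.5. In older rats it was 10788 at 0 time, then 11760, 8158, 5996, 4286 and 6777. All 5 adult arrays after fracture were lower than that control, by 2.43-fold to 2.77-fold. In young rats the change from the control lay between -0.70 and 0.18 on the log2 scale, with 2 of 5 weeks above the control.

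Over the 3 ages the brightest Hspb1 probe set did not pass the test at any week. Its mean signal was 5289.8 ± 1896 at 2 weeks against 10838 ± 5752 at 0 time (SD, n = 3 ages each), a change of -0.95 (SE 0.31, adjusted p = 0.0525 in limma) with all 3 ages lower. The changes at 0.4, 1, 4 and 6 weeks were -0.43, -0.50, -0.94 and -0.71, with adjusted p-values between 0.0946 and 0.316. At 2 weeks it was called with a floor of 1 (adjusted p = 0.0359 in limma), with log2 of the signal plus 50 (0.0347), with quantile normalization (0.0433) and when probe sets averaging under 200 were left out (0.0213), and not with median scaling (0.0925) or without the adult arrays (0.277).

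The 5 Hspb1 probe sets were not alike. The second brightest was called lower at 1 week (-0.88, adjusted p = 0.0451 in limma) and at 2 weeks (-1.11, adjusted p = 0.0307), and it and the third brightest followed the brightest over the 18 arrays (Pearson r of 0.94 and 0.97). The fourth ranged only between 1360.2 and 2309 over all arrays and tracked the brightest weakly (r of 0.33). The fifth, which is annotated to both Asb2 and Hspb1, fell by 2.53, 1.97 and 2.05 on the log2 scale at 0.4, 1 and 2 weeks (adjusted p = 0.00274, 0.00938 and 0.0156), and its signal cannot be assigned to either gene.

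Hspa8 moved within a 2.07-fold range over all arrays. Its probe sets are both annotated to Haus8l2 as well as Hspa8, so the signal is shared by annotation. In young rats its signal was 11050.3 at 0 time, then 10095, 11238, 8424, 9487 and 11367 after it. In adult rats it was 14022 at 0 time, then 12443, 9922.5, 6764, 8972 and 8654. In older rats it was 8108 at 0 time, then 11983, 10714, 8562, 7487.5 and 9202. By this probe set, adult arrays after fracture were all below their control, while 4 of 5 older arrays were above theirs. The fitted change was 0.09 at 0.4 week (95% interval -0.33 to 0.50) and -0.45 at 2 weeks (-0.87 to -0.04, adjusted p = 0.106 in limma), and no week passed. The other Hspa8 probe set changed by 0.14, -0.25, -0.34, -0.48 and -0.36 over the 5 times (SE 0.17, smallest adjusted p 0.111), with r of 0.64 to the brightest. On it the adult arrays were again all below their control, but the older arrays were above theirs at 0.4 week only. The older changes were 0.38, -0.06, -0.25, -0.50 and -0.09.

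Hsph1 moved within a 2.38-fold range and was lowest at 4 or 6 weeks at each age. In young rats its signal was 993.9 at 0 time, then 729, 622, 610.5, 560.5 and 966 after it. In adult rats it was 904 at 0 time, then 986, 691, 686, 431 and 593. In older rats it was 640 at 0 time, then 809, 868, 662, 468 and 418. At 4 weeks the 3 signals lay wholly below the 3 controls, with a mean of 487 ± 66.5 against 846 ± 184 at 0 time (SD, n = 3 ages each). The change there was -0.78 (SE 0.26, adjusted p = 0.0980 in limma), and no week passed. The other Hsph1 probe set was dim, between 5.6 and 108.7, and was not called either.

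Hspd1 was highest at 0.4 week in adult and older rats. In young rats its signal was 3674 at 0 time, then 3366, 3269, 3006, 3273 and 3375 after it. In adult rats it was 3501 at 0 time, then 4292, 2376, 2386, 2864 and 2495. In older rats it was 2263 at 0 time, then 4000.3, 2811, 2278, 2199 and 2315. The older signal at 0.4 week was 76.8% above its control and the adult signal 22.6%, while the young signal differed by -8.38%. The fitted change at 0.4 week was 0.33 (95% interval -0.06 to 0.72, adjusted p = 0.180 in limma), and no week passed.

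The other Hspd1 probe set lay above its controls at 1 week, where the brightest did not, and had an r of 0.59 to the brightest over the 18 arrays. At 1 week its signal was 2244, 1436 and 1434 (young, adult, older), against 1047, 1085 and 673 in the controls of those ages. All 3 ages were above their controls and the groups did not overlap, at 0.4 week as well as at 1 week. The changes were 0.79 at 0.4 week (adjusted p = 0.137 in limma) and 0.87 at 1 week (SE 0.38, adjusted p = 0.100), neither of which passed, where the brightest probe set had -0.14 at 1 week.

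Hspe1, the partner of Hspd1, was above its control at 0.4 week at all 3 ages. In young rats its signal was 2339 at 0 time, then 2461, 1858, 2297, 2031 and 2045 after it. In adult rats it was 2198 at 0 time, then 2661.5, 1756, 2081, 1464 and 1826. In older rats it was 1641 at 0 time, then 2689.6, 2481, 2313, 1979.9 and 1716. The mean was 2604 ± 125 at 0.4 week against 2059 ± 369 at 0 time (SD, n = 3 ages each), and the groups did not overlap. The change was 0.35 (SE 0.16, adjusted p = 0.122 in limma), which did not pass.

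The other Hspe1 probe set, made from the same transcript tag, did pass at 0.4 week. Its signal at 0.4 week was 2148, 2444 and 2064 (young, adult, older), against 1456, 1439.6 and 859.5 in the controls of those ages. The change was 0.86 (SE 0.20, adjusted p = 0.00874 in limma), the only rise called among the 15 probe sets at any week. No other week passed for it, with changes of 0.34, 0.22, 0.15 and 0.17 at 1, 2, 4 and 6 weeks. With the mean of both probe sets, Hspe1 was called higher at 0.4 week (0.61, adjusted p = 0.0260).

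By number, 1 of the 6 genes was called lower and 0 higher at each time from 0.4 to 4 weeks. Among all probe sets limma called 31.1%, 34.9%, 19.8% and 5.08% at these 4 times. Those called lower made up 17.1%, 20.4%, 10.3% and 1.77%, and those called higher 14.1%, 14.6%, 9.49% and 3.31%. At 6 weeks limma called 0 of the 6, beside 0.881% of all probe sets (0.32% lower and 0.561% higher), and 2 of the 6 had an unadjusted p under 0.05 (Cryab and Hspb1). With the arrays of 6 weeks and 0 time alone, and with the methods' t-test, 0 were called at 6 weeks as well as at the 4 earlier times. Signals after fracture did not overlap the controls for 2, 1, 1, 2 and 0 genes over the 5 times, beside 38.5%, 39.8%, 28.9%, 16.9% and 12.9% of all probe sets. Cryab was among them from 0.4 to 4 weeks, with Hspe1 at the first of these times and Hsph1 at the last.

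The median change of the 6 genes was 0.05, -0.17, -0.40, -0.55 and -0.31 on the log2 scale over the 5 times. The median over all probe sets was -0.13, -0.13, -0.13, -0.04 and -0.06. Scaling each array to its median moved that median at 0.4 week to -0.02, and under this scaling the fall of Cryab was -1.65, -1.93 and -1.68 at 0.4, 1 and 2 weeks, still called, and -1.06 at 4 weeks, no longer called (adjusted p = 0.0582 in limma).

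**Figure D2:**
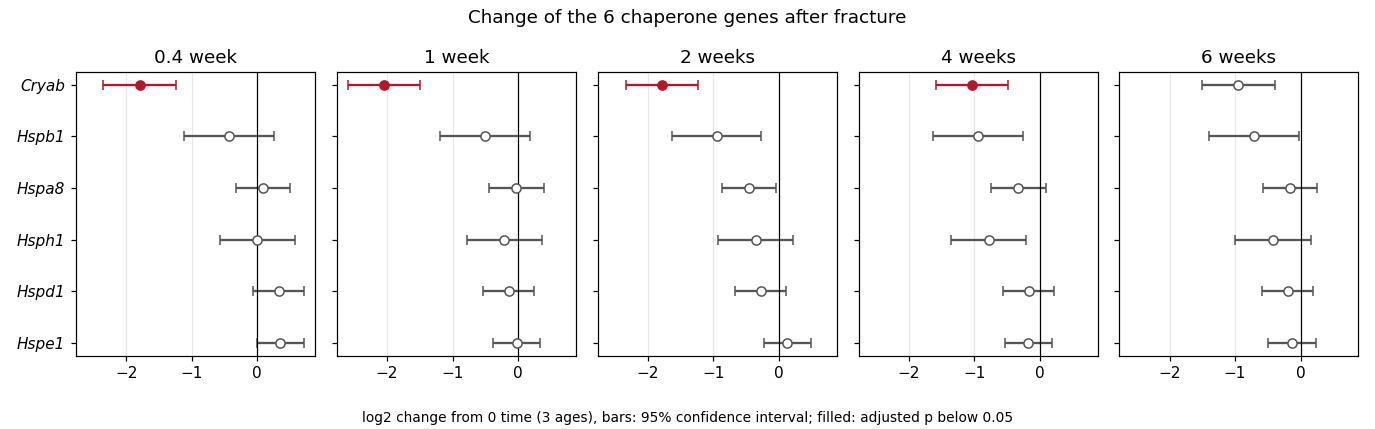
Change from 0 time on the log2 scale for the brightest probe set of each gene at each week (points), with 95% confidence intervals from the fit over the 18 arrays (bars). Filled points passed an adjusted p of 0.05, which only Cryab did, from -1.80 at 0.4 week to -1.03 at 4 weeks, while 0 lay within the intervals of Hspd1 and Hspe1 at every week.

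Averaged over the 3 ages, the 2 small heat shock proteins lay below the 4 general chaperones in their change from the control at each week. The mean change of Cryab and Hspb1 minus the mean change of Hspa8, Hsph1, Hspd1 and Hspe1, each from the control of the same age, was -1.31 ± 0.74, -1.18 ± 0.60, -1.13 ± 0.27, -0.63 ± 0.63 and -0.61 ± 0.34 over the 5 times (log2 scale, SD over 3 ages). It was below 0 in 14 of the 15 pairings of age and week, the exception being young rats at 4 weeks with 0.05. Cryab alone lay below the general mean in 15 of 15, and Hspb1 in 11 of 15. All 4 exceptions of Hspb1 were in young rats, where it lay above the general mean by 0.22, 0.47, 0.17 and 0.02 at 0.4, 1, 4 and 6 weeks. The 5 values of an age share 1 control array, so they are not independent of each other, and this difference was not tested.

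At 0.4 week the general chaperones were, by their brightest probe sets, mostly above the control in older and adult rats. In older rats all 4 of them, and Hspb1, were above the control of that age, and in adult rats the 3 genes Hsph1, Hspd1 and Hspe1 were. In young rats only Hspe1 of the 4 was above its control, by 0.07. The mean change of the 4 genes was -0.16, 0.13 and 0.61 (young, adult, older), but that of Hspa8 was -0.13, -0.17 and 0.56. The other probe sets of Hspa8, Hsph1 (dim), Hspd1 and Hspe1 were all above the young control, by 0.22, 0.54, 0.08 and 0.56. These probe sets changed by -0.20, -0.83, 0.84 and 0.76 in adult rats and by 0.38, -0.18, 1.46 and 1.26 in older rats. These changes rest on 1 control array per age, and their order by age was not tested. On the brightest probe sets the older control had the lowest 0 time signal of the 3 ages for each of the 4 genes. Its fold values against the young control lay between 0.616 for Hspd1 and 0.734 for Hspa8. On the other probe sets they were 1.04 for Hspa8 and 2.52 for Hsph1 (dim), and 0.642 and 0.590 for Hspd1 and Hspe1.

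Skeletal muscle genes were measured beside the small heat shock proteins, because Cryab and Hspb1 are abundant in muscle. The controls carried strong muscle signals, and the sum over 26 measured muscle genes was 59889 to 71118 at 0.4 week against 219681 to 452366 at 0 time (3 arrays each). At 0.4 week 21 of the 26 were called lower and 1 higher (median change -2.50). Those called lower numbered 20, 6, 1 and 0 over the times from 1 to 6 weeks, and those called higher 1, 0, 0 and 0. The brightest were Acta1, the skeletal muscle actin (-1.48 at 0.4 week), Ckm, the muscle creatine kinase (-2.41), and Atp2a1, the calcium pump of fast fibres (-2.32).

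By its brightest probe set, the course of Cryab crossed that of the mean of the muscle list. At 0.4 week this probe set fell less than the mean of the 26 genes at 3 of 3 ages. The difference was 0.83 ± 0.65 (log2 scale, SD over 3 ages), but only 0.11 in young rats. On the other Cryab probe set the young change was -2.16, further than the young muscle mean of -1.85. Its adult (-2.98) and older (-1.10) changes were smaller than the muscle means of those ages. At 2 weeks the brightest Cryab probe set had fallen further than the muscle mean at 3 of 3 ages, with a difference of -0.88 ± 0.36. The muscle mean changed by -2.62 ± 0.83 at 0.4 week and by -0.90 ± 0.22 at 2 weeks. Single genes of the list differed from that mean. At 2 weeks Cox8b of this list (-1.998, adjusted p = 0.0142 in limma) fell further than Cryab (-1.79). Myl2 (-1.83) and Myl3 (-1.82) fell about as far as Cryab but were not called, and Pygm (-1.61) was called with a smaller fall. The list median was -0.78. At 0.4 week Myog rose by 2.30 on the log2 scale. Across the 18 arrays, which share ages and weeks, Pearson's r with the muscle mean was 0.72 for Cryab, 0.28 for Hspb1, -0.25 for Hspa8, -0.27 for Hsph1, -0.48 for Hspd1 and -0.61 for Hspe1. The part of muscle content in the values of Cryab and Hspb1 was not tested.

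**Figure D3:**
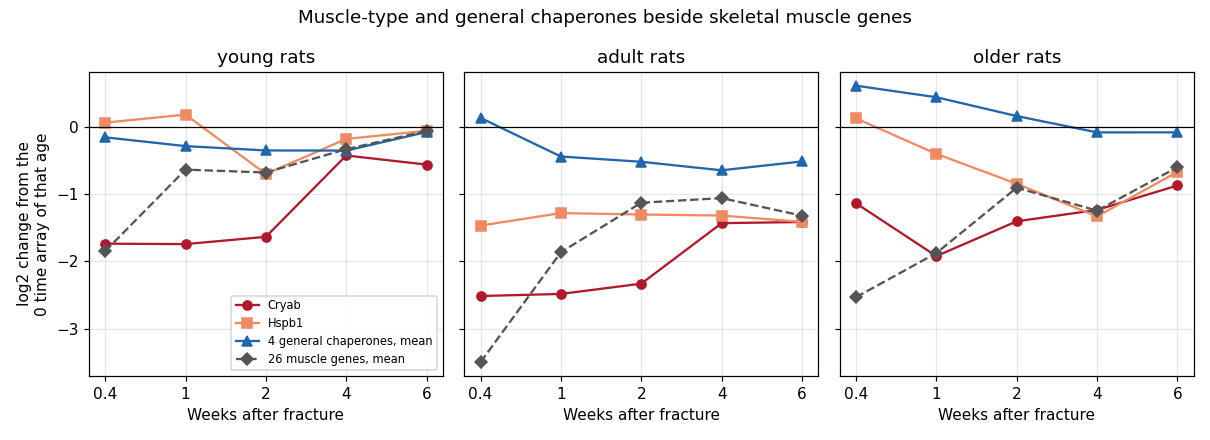
Change from the 0 time array of the same age (log2 scale) against weeks after fracture, in a panel for each age, for Cryab, Hspb1, the mean of the 4 general chaperones and the mean of 26 skeletal muscle genes. The muscle mean lies at -1.85, -3.49 and -2.53 at 0.4 week (young, adult, older) and nearer to 0 by 2 weeks, while Cryab stays between -1.40 and -2.33 at 2 weeks.

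Other tissue lists also moved with time. Erythroid genes were called lower for 10 of 10 at 0.4 week and granulocyte genes for 7 of 7, and mitochondrial energy genes for 21 of 30, with 1 higher. Cartilage genes were called higher for 8 of 9 and bone genes for 8 of 12 at 2 weeks, and macrophage genes for 4 of 6 at 0.4 week. Cell cycle genes were called higher for 5 of 20 and lower for 1 at 0.4 week. The part of these cell types in the values of the 6 chaperone genes was not tested. The ratio of 3′ to 5′ Gapdh probe sets, a sign of RNA quality, was 3.48 on the young 4-week array and 6.57 on the young 6-week array. On the other 16 it was 1.15 to 1.83. The same ratio for Actb was 2.29 and 3.06 on those 2 arrays, against 1.08 to 2.12 on the other 16. For Actb the adult control (1.20) lay below all later adult arrays (1.48 to 2.12). The older control (1.08) likewise lay below all later older arrays (1.31 to 1.71). The part of RNA quality in the changes from these controls was not tested. Without the young 4- and 6-week arrays Cryab changed by -1.27 at 4 weeks (adjusted p = 0.0392 in limma) and -1.08 at 6 weeks (adjusted p = 0.0724).

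None of the 6 genes passed the adjusted threshold between older and young rats after fracture. Over the 5 later weeks Cryab averaged 7280.4 ± 1827 in older rats and 4896 ± 2325 in young rats (SD, n = 5 weeks each), a difference of 0.66 (SE 0.18) with older rats higher in 4 of 5 weeks. The unadjusted p was 0.00462 and the adjusted p 0.215 in limma, which called 0% of all probe sets in this comparison, 12.6% having an unadjusted p under 0.05. Hspb1 was 0.59 higher in older rats (SE 0.21, adjusted p = 0.288, higher in 4 of 5 weeks). Hspd1 was 0.30 lower on the log2 scale in older rats (-0.30, SE 0.13, adjusted p = 0.392, higher in 1 of 5 weeks). Those 3 were the genes with an unadjusted p under 0.05 by their brightest probe sets, and Hspa8, Hsph1 and Hspe1 differed by -0.09, -0.14 and 0.05. The other probe sets of Hsph1 (dim) and Hspe1 had the opposite sign (0.58 and -0.16). Those of Cryab (1.08), Hspa8 (-0.03) and Hspd1 (-0.25, unadjusted p = 0.418 in limma) kept the sign. So did the other Hspb1 probe sets, at 0.22 to 0.86. Before fracture older rats already had 1.68-fold the Cryab signal of young rats and 2.11-fold the Hspb1 signal, on 1 array each.

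None of the 6 genes passed for a difference between older and young rats in the change from the own control. The older minus young change was -0.09 for Cryab and -0.48 for Hspb1, and 0.36, 0.49, 0.40 and 0.56 for Hspa8, Hsph1, Hspd1 and Hspe1. The other probe sets of Cryab, Hspa8 and Hsph1 had the opposite sign (0.32, -0.08 and -0.75). Those of Hspb1, Hspd1 and Hspe1 kept the sign. The smallest adjusted p was 0.248 for Hspe1 (SE 0.25, unadjusted p = 0.0527 in limma), none of the 6 had an unadjusted p under 0.05, and 6.59% of all probe sets were called. By its brightest probe set Hspe1 was above its control in 5 of 5 weeks in older rats and in 1 of 5 weeks in young rats. Its other probe set was above the control at every week at both ages. There the changes were 0.56, 0.0014, 0.14, 0.21 and 0.22 in young rats and 1.26, 1.04, 0.68, 0.66 and 0.48 in older rats. Each of these values rests on 1 control array per age.

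Correlations among the 6 genes over the 18 arrays were computed for 15 pairs. Pearson's r was 0.80 between Hspa8 and Hspd1, 0.69 between Hsph1 and Hspe1 and 0.59 between Hspd1 and Hspe1, and 0.62 between Cryab and Hspb1. Between Cryab and the 4 general genes it lay between -0.32 and 0.12. These are descriptions over arrays that share ages, weeks and scaling.

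Among 2584 genes with a mean signal of at least 200, those most alike to each member over the 18 arrays were ranked by Pearson's r. Those of Cryab were Prune2 (0.95), Cpt1b, the muscle form of carnitine palmitoyltransferase (0.92), the HSP40 Dnaja4 (0.91), Crybb3 (0.91) and Gsta1 (0.90). Those of Hspb1 were Cdc34 (0.91), Des, which encodes desmin (0.89), Mapkapk3, a stress-activated protein kinase (0.85), Pdlim3 (0.85) and Cap2 (0.84). Des itself changed by -0.21 at 0.4 week and -0.91 at 2 weeks.

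The general chaperones were ranked in the same way. Pomp, a proteasome assembly factor, ranked first for Hspa8 (0.83) and for Hsph1 (0.82). Hspa8 was followed by Dnaja2 (0.74), Psmb3 (0.72), Tubg1 (0.70) and Psmd1 (0.69), and Hsph1 by Psmb5 (0.75), Furin (0.72), Sfxn1 (0.68) and Lta4h (0.68). Those of Hspd1 were Psma6 (0.79), Psmc1 (0.78), Sfxn1 (0.77), Rabggtb (0.76) and Smad2 (0.76). Those of Hspe1 were Csnk2b (0.80), Nsfl1c (0.79), Psmb1 (0.79), Rack1 (0.78) and Rpl36al1 (0.78).

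The rest of the chaperone machinery was called in both directions up to 2 weeks and only lower afterwards. Of 79 other chaperone genes listed, 31 were measured, and at 0.4 week 7 were called higher and 8 lower, beside 14.1% and 17.1% of all probe sets. Those called higher numbered 3, 2, 0 and 0 from 1 to 6 weeks, and those called lower 9, 10, 7 and 3. Those lower made up 29.0%, 32.3%, 22.6% and 9.68% of the 31, beside 20.4%, 10.3%, 1.77% and 0.32% of all probe sets. Those higher made up 9.68%, 6.45%, 0% and 0% of the 31, beside 14.6%, 9.49%, 3.31% and 0.561% of all probe sets. The 31 genes stand on their brightest probe sets, while all probe sets include the dim ones, so the shares rest on unlike bases. That also holds for the 6 genes above. The median change of the 31 was -0.15, -0.23, -0.26, -0.27 and -0.26 over the 5 times. These counts fell to 0 higher and 3 lower at 0.4 week without the adult arrays, and to 2 higher and 3 lower without the older arrays. The share of all probe sets called in these smaller fits is not given, so the drop is not a result about chaperones.

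Among the other small heat shock proteins, Hspb6 (HSP20), which is abundant in muscle, fell most. Its signal at 0.4 week was 649.9, 314 and 688 (young, adult, older), against 4963, 17356 and 10617 in the controls of those ages, with no overlap. It was 18.7-fold lower at 0.4 week (-4.22, SE 0.46, adjusted p = 0.000203 in limma) and changed by -2.78 at 1 week and -1.68 at 2 weeks, both called, and by -1.37 and -1.55 at 4 and 6 weeks, which were not. Hspb2, another small heat shock protein of muscle, fell by 0.83, 0.85, 0.68 and 0.77 on the log2 scale at 0.4, 1, 2 and 4 weeks (SE 0.19, all called). Cryaa, the lens partner of Cryab, changed by -0.15 at 0.4 week and was not called.

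Among the HSP40 proteins, which hand unfolded proteins to HSP70, Dnaja4 had the most lasting fall. At 0.4 week its signal was 519, 539 and 659.8 in rats of the 3 ages, against 2474, 4136 and 4048 in their controls. It changed by -2.60, -2.80, -2.19, -1.73 and -1.21 at the 5 times, all called (adjusted p from 2.13e-05 to 0.0163 in limma). Dnajb5 fell by 1.63 on the log2 scale at 0.4 week and by 1.26 at 1 week. Dnaja1 rose by 1.12 (adjusted p = 0.0150) and Dnajc5 by 0.87 (adjusted p = 0.00709) at 0.4 week, and Dnaja2 by 0.68 and Dnajb1 by 0.36 at 1 week. None of these genes that rose passed the joint F test over time (adjusted p = 0.122, 0.0528, 0.178 and 0.0819 in that order). At 0.4 week the Dnaja1 signal was 2194, 2075 and 2440.4 in rats of the 3 ages, against 1669, 1117 and 578.5 in their controls.

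Among HSP70 proteins and their helpers, Hspa1a, the stress-inducible HSP70, fell by 1.14 on the log2 scale at 0.4 week (SE 0.26, adjusted p = 0.00844 in limma) and by 1.32 at 2 weeks (adjusted p = 0.0106). Copies of this gene are nearly identical, and the probe set may not tell them apart. Stip1 (HOP), which links HSP70 to HSP90, and St13 (HIP), a co-chaperone of HSP70, rose by 0.46 and 0.50 at 0.4 week, as did Trap1, the mitochondrial HSP90, by 0.95, and Cct3, a subunit of the cytosolic chaperonin, by 0.72. Of these, only Cct3 did not pass the joint F test over time (adjusted p = 0.203 in limma). Fkbp4, an HSP90 co-chaperone, fell by 0.72, 0.94 and 0.95 at 0.4, 1 and 2 weeks, and Chordc1 by 0.89 and 0.87 at 1 and 2 weeks. Hsf1 itself changed by -0.53 at 0.4 week (adjusted p = 0.0502 in limma), which did not pass. Hspa13, with a mean signal of 94.8, lies below the mean signal of 200 used for naming and was named after its values were seen, with a called rise of 1.88 at 0.4 week. Its older control had a signal of 10.1, which the floor set to 20, so the size of that rise depends on the floor.

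The 3-unit repeat shown above for the general chaperones was present in the promoter windows of 2 of the 27 other chaperones with a window, Dnaja1 and Chordc1. Dnaja1 was called higher at 0.4 week and Chordc1 lower at 1 and 2 weeks.

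**Figure D4:**
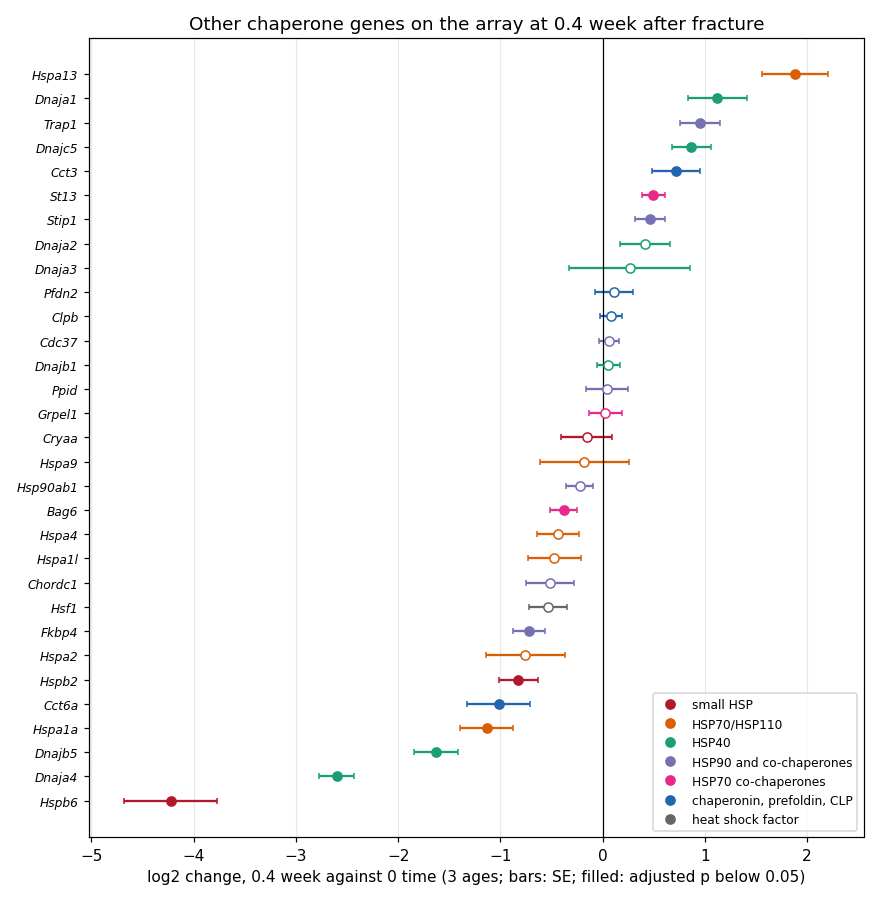
Change at 0.4 week against 0 time on the log2 scale (points, bars are standard errors) for the 31 other chaperone genes measured, coloured by family and ordered by change, filled where the adjusted p passed 0.05. Hspb6 lies at -4.22 and Dnaja4 at -2.60 at the low end, and Dnaja1 at 1.12 and Hspa13 at 1.88 at the high end, the last with a control below the floor of 20.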

How the data were processed

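RNA pooled from 2 rats per array was hybridised to the 18 Affymetrix rat GeneChip arrays of series 3 of the study. The arrays of the other series were not analysed here. The deposited intensity is the linear signal of each probe set from Microarray Suite 5.0, which the authors scaled so that every array averages 500, as was checked on trimmed means. Of 8799 probe sets, 59 control probe sets were left out. A floor of 20 was applied before log2, and nothing else was normalized. Names come from the platform annotation updated with a RefSeq table (GRCr8), giving 7017 probe sets with 1 symbol, 297 with several and 1426 with none. The brightest probe set by mean signal stands for a gene.

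Weeks were compared with 0 time in limma 3.58.1 under R 4.3.3. The fit held all 18 arrays and additive terms for week and age, an intensity trend and Benjamini-Hochberg adjustment over 8740 probe sets at 0.05 (residual degrees of freedom 10). Older and young rats were compared over the 15 arrays after fracture with the same terms (8), and the changes from the own control in a fit with an age by fracture term (8). With no replicate array of an age and time, no p-value measures the spread between arrays of the same age and time. In these fits the spread is what the terms leave over, that is how far the ages depart from a common course over the weeks. The number of arrays limits the precision. Python 3.11.15 with matplotlib 3.10.9 drew the figures.

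The members, gene lists and tests were chosen with earlier results of these data known. All 6 members are named, with other chaperones called at 0.4, 1 or 2 weeks at a mean signal of at least 200 (up to 6 in each direction with the largest change), the 5 genes most alike to each member, and up to 3 bright genes of a marker list beside a result. The fits were tested on simulated data. Alternative settings were other floors and offsets, quantile and median scaling, a filter on dim probe sets, no intensity trend, the mean of all probe sets, no age term, single-week fits, the methods' t-test, and leaving out ages, weeks or arrays.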

Additional observations from a re-analysis of the deposited data

How the results depend on the processing

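The age is the only label that pairs arrays across weeks, and it is a term of the fit. Without the age term (no replicate block) the number of the 6 genes called at 4 weeks was 0 in place of 1, and at the other times it was unchanged. One gene, Cryab, was called over time and at 0.4, 1, 2 and 4 weeks, and 0 at 6 weeks. With the arrays of that week and 0 time alone, and with the methods' t-test, the number was 0 at 0.4, 1, 2 and 4 weeks, in fits with fewer arrays. At 4 weeks it was 0 with quantile normalization and with median scaling. At 2 weeks it was 2 with a floor of 1, with log2 of the signal plus 50, with quantile normalization and when only probe sets with a mean signal of 200 or more were tested, Hspb1 being the added gene. The filter at 200 also gave 2 at 4 weeks and 1 at 6 weeks, over fewer probe sets. With the mean of all probe sets it was 3 over time, 3 at 0.4 week and 2 at 1, 2 and 4 weeks. Hspe1 was among those called at 0.4 week, as higher, so that count is not of falls alone. The mean of Hspb1 then includes the probe set shared with Asb2. Leaving out an age or an array gave 0 to 1 over time, at 0.4 week and at 4 weeks, 1 to 1 at 1 week, 0 to 2 at 2 weeks and 0 to 0 at 6 weeks. The cause of these shifts was not tested beyond the number of arrays or probe sets. The arrays left out alone, the adult control and the older 0.4-week array, were chosen after seeing the data. No member was called between older and young rats, or in the change from the own control, under any setting run.

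Directions that turned were all of uncalled changes. For quantile normalization they were Hsph1 at 0.4 week (-0.0032), Hspa8 at 1 week (0.20), Hspa8 between older and young rats (0.024) and Cryab in the own-control change (0.27). For median scaling they were Hspa8 and Hspe1 at 1 week (0.0944 and 0.0987) and the own-control change of Cryab (0.0507). For the mean of all probe sets they were Hsph1 at 0.4 week (-0.0759), Hspd1 at 1, 4 and 6 weeks (0.36, 0.13 and 0.0597), Hspe1 at 1 and 6 weeks (0.16 and 0.0185), Hsph1 and Hspe1 between older and young rats (0.22 and -0.0543), and the own-control changes of Cryab and Hsph1 (0.11 and -0.13). Without the 4- and 6-week arrays they were Hspa8 and Hsph1 between older and young rats (0.0673 and 0.25) and the own-control change of Cryab (0.22). Leaving out an age, a week or an array gave ranges that span 0. At 0.4 week these were -0.72 to 0.0924 for Hspb1, -0.16 to 0.23 for Hsph1 and -0.15 to 0.31 for Hspa8. At 1 week they were -0.53 to 0.0255 for Hsph1, -0.33 to 0.14 for Hspe1, -0.24 to 0.21 for Hspa8 and -0.36 to 0.0722 for Hspd1. Later they were -0.0525 to 0.24 for Hspe1 at 2 weeks, -0.40 to 0.0339 for Hspe1 at 4 weeks and -0.33 to 0.11 for Hspa8 at 6 weeks. Between older and young rats they were -0.038 to 0.13 for Hspe1 and -0.30 to 0.12 for Hsph1, and for the own-control change of Cryab -0.27 to 0.0853.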
